A study of Mus musculus with 9 samples.

Results

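Whole-brain transcriptomes of baclofen-treated diabetic mice (BAC) were compared with those of untreated diabetic mice (DNP), over all genes of the count table. Of the 9 libraries in the series, the 6 that belong to this comparison were chosen by their labels, 3 from BAC mice and 3 from DNP mice, each from a separate animal. The other 3 libraries came from normal control mice (CON). They entered the gene filter, the normalization and the estimate of the spread, and are given as side values. All mice were C57BL/6 males, 7 weeks old at the start. BAC and DNP mice shared the same diabetes protocol, which was a diet with 60% fat for 4 weeks followed by streptozotocin, a toxin of pancreatic beta cells, given intraperitoneally at 50 mg/kg on 7 days after a daily fast of 6 h. Fasting blood glucose of at least 16.7 mmol/L and lowered pain thresholds 4 weeks after streptozotocin were required before a mouse was assigned to either group. BAC mice then received baclofen intraperitoneally at 8 mg/kg daily for 7 days, and DNP and CON mice received saline. No group of normal mice given baclofen was analysed here, so a response to the drug itself and a response in the diabetic state cannot be told apart.

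Baclofen is an agonist of the GABA-B receptor, a G protein-coupled receptor built from the products of Gabbr1 and Gabbr2. The receptor couples to inhibitory G proteins, which lower cAMP, open potassium channels of the GIRK type and close presynaptic calcium channels. A whole brain also holds tissue that is not neuronal. Fibroblasts of the meninges secrete matrix proteins and carry organic ion transporters, endothelial cells of the vessels form the blood-brain barrier, and most cells respond to glucocorticoids through a nuclear receptor. These groups were therefore described together with the neuronal genes.

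Between 13107382 and 15454298 reads were counted on genes in the 6 libraries. Mitochondrial transcripts took 6.80% ± 0.186 of the counts in DNP and 6.42% ± 0.705 in BAC (mean ± SD of 3 mice each). Libraries were also compared by scores, where a score is the mean, over the tested genes of a list, of the log2 deviation from the mean of the 9 libraries. Brainstem and spinal cord genes (Hox genes, Slc6a5 and others) were present in DNP replicate 1 and BAC replicates 1 and 3, with scores of 3.19, 3.69 and 4.09, whereas DNP replicates 2 and 3, BAC replicate 2 and all CON libraries scored between -1.91 and -1.74. The labelled tissue thus differed in content between mice of the same group, and values within the libraries with and without these genes are given beside some of the results. They rest on BAC replicates 1 and 3 against DNP replicate 1, and on BAC replicate 2 against DNP replicates 2 and 3, and carry no test. Fewer cells of a type and less RNA per cell cannot be told apart in such libraries.

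No gene passed an adjusted p of 0.05 between BAC and DNP in edgeR's quasi-likelihood test over 18501 tested genes (0% called, smallest adjusted p 0.998). At an unadjusted p under 0.05, 438 genes passed (2.37%), of which 253 were higher in BAC (1.37%) and 185 lower (1%). This share is below the 0.05 that the threshold would pass on average if no gene differed. DESeq2 called 7 genes at an adjusted p of 0.05 (0.0378%), namely Mpzl2, Styx, Slc47a1 and Aebp1, which were higher in BAC, and Bloc1s6, Ube2a and Ap2s1, which were lower. The 3 BAC libraries lay wholly above the 3 DNP libraries for 626 genes (3.38%) and wholly below them for 630 genes (3.41%), together 6.79% of the genes. Groups of 3 libraries also separate by chance in some genes, and these counts carry no test. The log2 fold change was above 0 for 48.1% and below 0 for 51.9%, with a median of -0.01. The counts at an unadjusted p moved with the libraries, being 1361 without DNP replicate 1, 205 without DNP replicate 3, 216 without BAC replicate 1, 1448 without BAC replicate 2 and 677 without CON replicate 2.

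**Figure D1:**
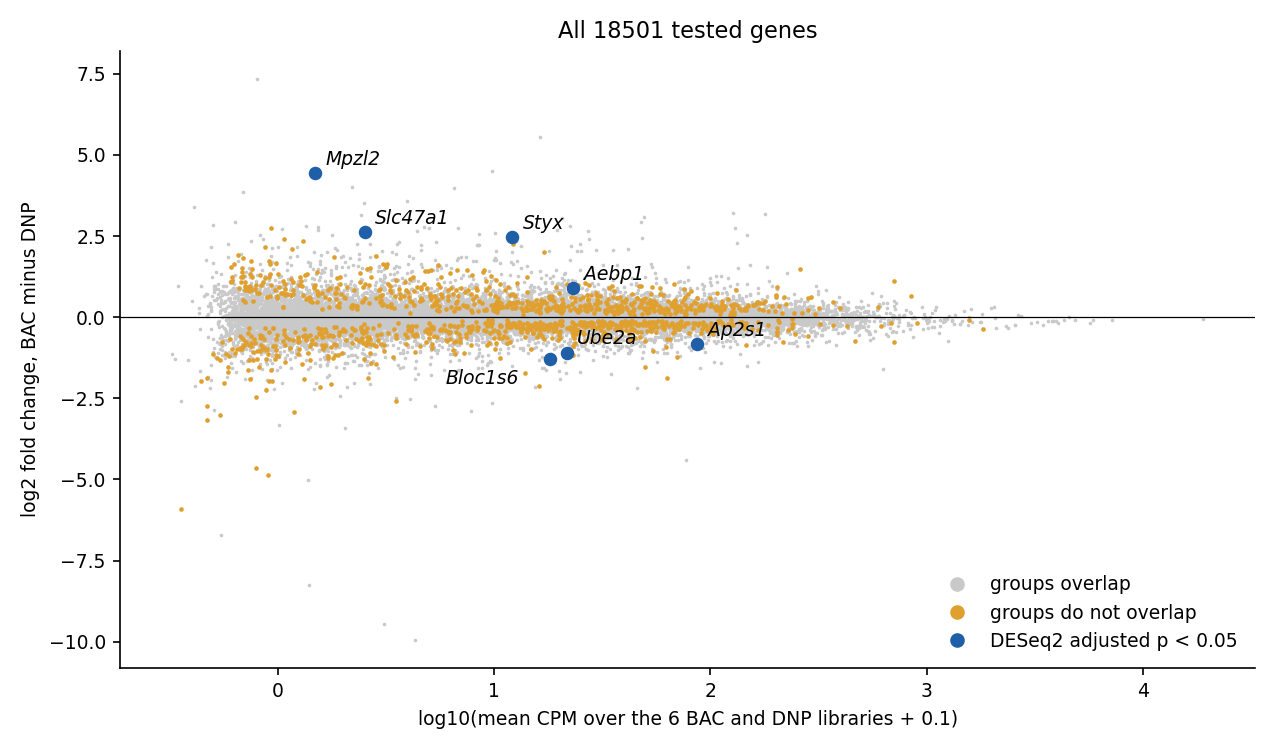
Log2 fold change between BAC and DNP (edgeR) against mean CPM over the 6 libraries (log10 scale, 0.1 added) for the 18501 tested genes. Genes whose 3 BAC and 3 DNP libraries do not overlap (1256) are coloured, and the 7 genes with a DESeq2 adjusted p under 0.05 are named. Mpzl2 lies highest among the named genes, at 4.43.

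Mpzl2 (ENSMUSG00000032092, chromosome 9 of GRCm38 from 45039799 to 45054015) encodes an adhesion protein of the immunoglobulin superfamily. It was read at 0.145, 0.205 and 0 CPM (counts scaled to a common library total, with TMM factors) in DNP mice and at 3.12, 2.42 and 2.46 CPM in BAC mice, with 1.39, 0.927 and 1.12 CPM in CON. All BAC libraries exceeded all others. The counts were low, 5 reads in DNP and 117 in BAC, a ratio of 23.2 with a 95% counting interval of 9.65 to 72.7, which covers counting error only. The DESeq2 adjusted p was 2.48e-05 and the edgeR adjusted p 0.998.

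The exons of Mpzl2 share 2138 bases with Gm48840, a gene model on the opposite strand. In libraries that do not mark strand, reads from these bases cannot be told apart. Gm48840 had 11, 14 and 3 reads in DNP and 1, 1 and 2 in BAC, the reverse order of Mpzl2. With the reads of both models summed, the counts were 13, 17 and 3 in DNP, 44, 36 and 41 in BAC and 24, 34 and 31 in CON, and the ratio of BAC to DNP was 3.63 (95% counting interval 2.45 to 5.51). The BAC libraries remained above the DNP libraries in this sum (log2 fold change 1.84, standard error or SE 0.52), and the DESeq2 adjusted p was 0.354. The size of the Mpzl2 difference, and its DESeq2 call, thus depended on whether the reads of Gm48840 were counted with it. Whether reads were assigned to the wrong model was not tested. Gm48840 and the other partner genes named here were singled out after their values were seen.

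Slc47a1 (ENSMUSG00000010122, chromosome 11 from 61343401 to 61378345), an exporter of organic cations that marks fibroblasts of the meninges, had 1.09, 0.478 and 0.460 CPM in DNP and 6.46, 2.49 and 3.59 CPM in BAC. Every BAC library lay above every DNP library, and the CON libraries reached from 1.46 to 4.28 CPM. The summed counts of 182 against 29 gave a ratio of 6.21 (95% counting interval 4.18 to 9.54). The log2 fold change was 2.62 (SE 0.57), with a DESeq2 adjusted p of 0.0410.

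Aebp1 (ENSMUSG00000020473, chromosome 11 from 5861947 to 5872088), a secreted protein that binds collagen, had 14.2, 16.8 and 17.3 CPM in DNP and 29.6, 25 and 35.6 CPM in BAC. The groups did not overlap, and CON lay between them at 23.5 ± 2.32 CPM (mean ± SD of 3 mice). Its log2 fold change was 0.90 (SE 0.17, DESeq2 adjusted p 0.0113), with 1.19 within the libraries that had brainstem genes and 0.55 within those that did not.

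Styx (ENSMUSG00000053205, chromosome 14 from 45351093 to 45422820), a phosphatase-like protein without catalytic activity, had 2.46, 4.37 and 4.14 CPM in DNP, 27.0, 23.8 and 10.2 CPM in BAC and 3.25, 5.49 and 3.16 CPM in CON. The CON and DNP libraries were alike in level, and BAC replicates 1 and 2 stood furthest above them. The transcript is 99.7% identical to that of Gm14698 over 4234 bases, and its exons share 3878 bases with Gnpnat1 on the opposite strand. Gm14698 had 153, 249 and 259 reads in DNP and 264, 270 and 210 in BAC, and so did not move against Styx as Gm48840 did against Mpzl2. Summed over the 3 genes, the BAC libraries still lay above the DNP libraries, with a log2 fold change of 0.84 (SE 0.25) in place of 2.47 (SE 0.43), and the DESeq2 adjusted p was 0.816 in place of 0.000133. How reads with several matching positions were counted is not given in the sources used here.

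**Figure D2:**
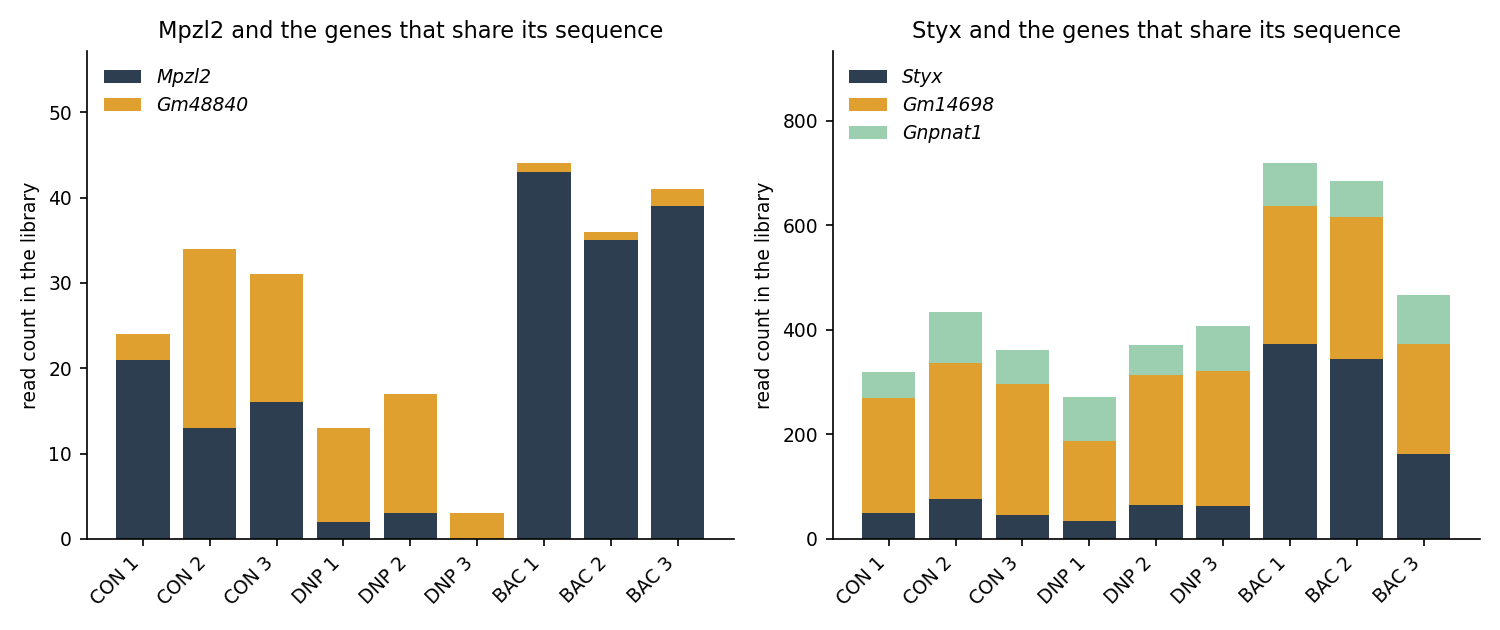
Read counts of Mpzl2 with Gm48840 and of Styx with Gm14698 and Gnpnat1 in each of the 9 libraries, stacked, with no scaling for library size. Gm48840 holds most of the reads of the Mpzl2 locus in the DNP libraries (11 of 13, 14 of 17 and 3 of 3) and 1 or 2 reads in each BAC library.

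Of the genes that were lower in BAC, Bloc1s6 had the smallest p. Bloc1s6 (ENSMUSG00000005804, chromosome 2 from 122738503 to 122749475), a subunit of the BLOC-1 complex that helps to form lysosome-related organelles, had 25.6, 25.3 and 26.1 CPM in DNP and 9.52, 9.60 and 12.2 CPM in BAC. The DNP libraries were nearly equal, and CON (14.8, 18.7 and 23.0 CPM) lay between both groups. The log2 fold change was -1.30 (SE 0.19, DESeq2 adjusted p 3.64e-05), and it was -1.25 and -1.42 within the libraries with and without brainstem genes.

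Ube2a (ENSMUSG00000016308, chromosome X from 36873900 to 36884222), a ubiquitin-conjugating enzyme, had 23.8, 34.5 and 29.8 CPM in DNP and 11.7, 12.7 and 16.9 CPM in BAC. The BAC libraries were also below the CON libraries, which had 27.3, 21.9 and 25.6 CPM. Ap2s1 (ENSMUSG00000008036, chromosome 7 from 16738410 to 16749294), the small subunit of the AP-2 adaptor of clathrin-mediated endocytosis, had 102, 109 and 122 CPM in DNP and 51.9, 69.7 and 65.4 CPM in BAC. The BAC libraries again did not reach the lowest CON library at 73.9 CPM. The log2 fold changes were -1.09 (SE 0.20) for Ube2a and -0.83 (SE 0.16) for Ap2s1, both with a DESeq2 adjusted p of 0.0113.

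The promoter windows of Styx, Ube2a, Ap2s1 and Aebp1 are shown because these genes had the smallest p among those whose start was matched in the RefSeq promoter table of GRCm38.p6 (250 bases before to 50 bases after the start, 5′ to 3′ on the gene's strand). Capitals mark letters of the glucocorticoid response element (an inverted repeat of AGAACA with a spacer of 3 bases), of its part AGAACA, of the cAMP response element TGACGTCA or of its part TGACG, each searched on both strands, where the shorter motifs are contained in the longer ones. All 4 genes lie on the plus strand, and the windows are chr14:45350936-45351235 for Styx, chrX:36874045-36874344 for Ube2a, chr7:16738194-16738493 for Ap2s1 and chr11:5861616-5861915 for Aebp1.
Styx: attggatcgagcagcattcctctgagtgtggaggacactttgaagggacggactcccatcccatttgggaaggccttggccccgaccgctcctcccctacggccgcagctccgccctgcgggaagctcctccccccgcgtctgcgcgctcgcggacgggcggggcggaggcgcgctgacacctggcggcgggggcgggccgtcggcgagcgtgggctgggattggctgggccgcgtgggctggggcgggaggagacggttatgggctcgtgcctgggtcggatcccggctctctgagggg
Ube2a: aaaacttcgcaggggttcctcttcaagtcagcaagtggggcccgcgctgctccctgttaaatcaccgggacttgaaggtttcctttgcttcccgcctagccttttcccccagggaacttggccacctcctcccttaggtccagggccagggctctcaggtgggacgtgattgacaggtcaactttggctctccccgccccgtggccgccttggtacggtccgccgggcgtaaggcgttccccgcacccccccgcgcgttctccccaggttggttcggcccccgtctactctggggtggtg
Ap2s1: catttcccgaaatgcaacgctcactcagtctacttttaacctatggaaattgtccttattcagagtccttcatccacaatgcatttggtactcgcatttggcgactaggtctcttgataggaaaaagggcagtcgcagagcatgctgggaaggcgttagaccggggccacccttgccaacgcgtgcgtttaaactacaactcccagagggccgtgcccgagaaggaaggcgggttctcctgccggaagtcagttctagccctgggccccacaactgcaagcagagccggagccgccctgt
Aebp1: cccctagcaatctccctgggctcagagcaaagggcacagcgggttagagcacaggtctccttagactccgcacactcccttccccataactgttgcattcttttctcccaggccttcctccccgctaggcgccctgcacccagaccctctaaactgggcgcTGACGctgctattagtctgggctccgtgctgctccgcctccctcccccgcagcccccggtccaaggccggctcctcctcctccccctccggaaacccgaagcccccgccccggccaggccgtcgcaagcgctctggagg
The Aebp1 window held TGACG, beginning 89 bases before the start, and the other 3 windows held none of these letters. Among the 32851 promoters of the table, 20.8% held TGACG, 1.79% TGACGTCA, 19.0% AGAACA and 0.00913% the full glucocorticoid response element, so that a match in 1 window of 4 is near the background.

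The genes to be described in both directions were the 12 higher and the 12 lower genes with the smallest p among those with a mean of at least 1 CPM over the 6 libraries and no overlap between the groups. They were chosen by this separation, so their separation is a description. Besides Mpzl2, Styx, Aebp1 and Slc47a1, the higher genes were Ogn, Hyal2, Zfp236, Pcdhgb2, Btbd2, Nemp1, Rbm8a and Gpc6. Ogn, a small proteoglycan of connective tissue, had 4.06, 5.46 and 2.43 CPM in DNP and 11.8, 10.7 and 10.1 CPM in BAC, the latter above all CON libraries. Hyal2, an enzyme that cleaves hyaluronan, had 3.33, 3.82 and 3.55 CPM in DNP and 8.06, 10.1 and 11.0 CPM in BAC. Both had a log2 fold change of 1.44. Gpc6, a glypican of the cell surface, was at 2.64 ± 0.875 CPM in DNP and 8.14 ± 1.60 CPM in BAC (mean ± SD of 3 mice each), and its levels in CON, 6.37 to 17.0 CPM, overlapped with BAC. Nemp1, a protein of the nuclear envelope, was at 3.42 ± 1.11 CPM in DNP and 8.87 ± 3.27 CPM in BAC (mean ± SD of 3 mice each). Among the more abundant genes, the zinc finger gene Zfp236 went from 32.8 to 54.1 CPM on average, Btbd2 from 40.5 to 75.9 CPM and Rbm8a, a core protein of the exon junction complex, from 22.0 to 36.9 CPM. Rbm8a has a near-identical copy, Rbm8a2, with 10 to 30 reads in each of the 6 libraries, and Pcdhgb2 shares its constant exons with the other genes of the gamma-protocadherin cluster, so that its reads are uncertain.

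The lower genes, besides Bloc1s6, Ube2a and Ap2s1, were Txnip, Slc43a3, Acer2, S100a16, Acot1, Igfbp7, Atp10a, Prrt3 and Slc16a7. Txnip, a thioredoxin-binding protein whose transcription follows glucose and which limits glucose uptake, had 29.4, 31.4 and 24.4 CPM in DNP and 19.4, 17.9 and 16.8 CPM in BAC. BAC was close to CON (18.8 ± 0.709 CPM) and the DNP libraries lay above both. The same order was seen for Acer2, a ceramidase of the Golgi, with 19.5 ± 4.86 CPM in DNP, 9.93 ± 1.62 in BAC and 9.37 ± 1.23 in CON (mean ± SD of 3 mice each). Acot1, a thioesterase of fatty acyl-CoA, had 14.4 ± 0.694 CPM in DNP, 8.40 ± 0.554 in BAC and 8.60 ± 2.03 in CON. The reads of Acot1 can be shared with its copy Acot2 and with the antisense gene 4732463B04Rik, and with these 3 genes counted together its log2 fold change was -0.50 (SE 0.18) in place of -0.78. S100a16 stood between, with 32.9 ± 2.46 CPM in BAC against 52.3 ± 5.66 in DNP and 19.7 ± 3.51 in CON. Slc16a7, a carrier of lactate and ketone bodies found in neurons, had 10.6, 34.2 and 33.6 CPM in DNP and 5.01, 6.35 and 6.55 CPM in BAC, and its CON libraries ranged from 13.8 to 52.7 CPM. Slc43a3, a purine nucleobase transporter of endothelial cells, had 1.92 ± 0.945 CPM in DNP and 0.506 ± 0.167 in BAC. Its counts were low, with 21, 44 and 19 reads in DNP and 8, 9 and 5 in BAC. The vessel-associated Igfbp7, the lipid flippase Atp10a and Prrt3 had log2 fold changes of -0.67, -0.60 and -0.61.

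**Figure D3:**
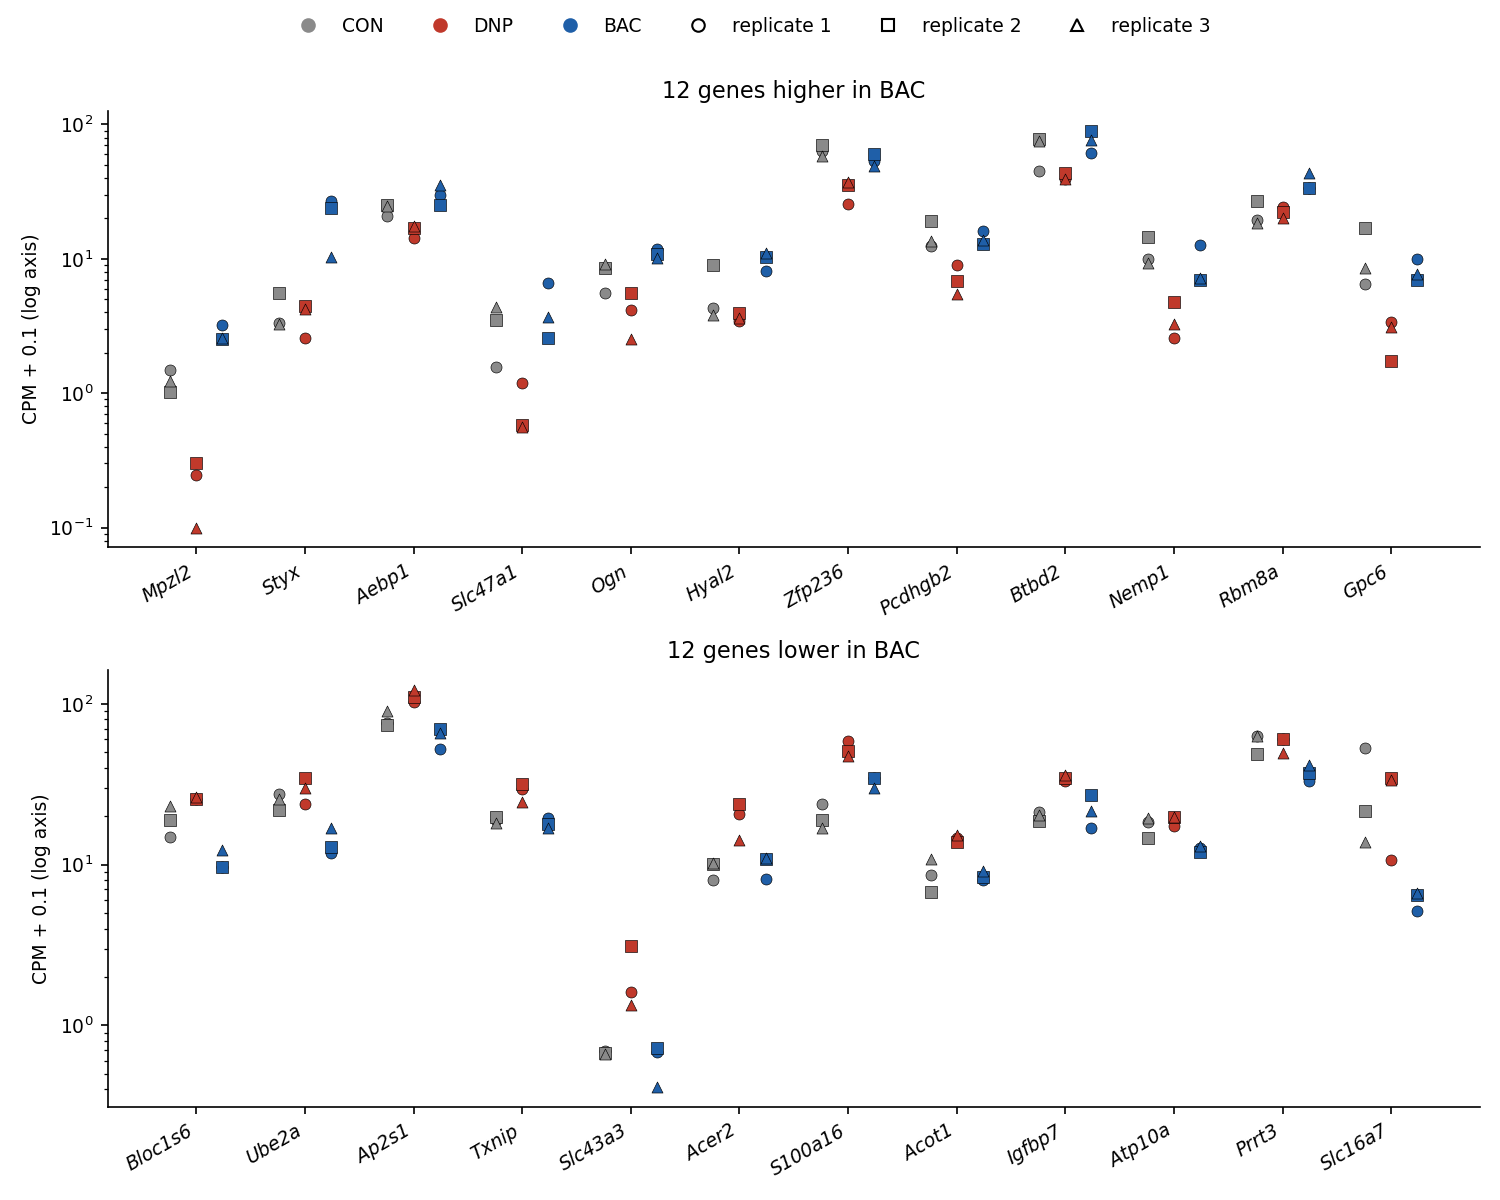
Levels of the 12 higher and 12 lower genes in each library, as CPM with 0.1 added on a log axis. Colours stand for groups and symbols for replicates, and in each gene the BAC and DNP libraries do not overlap, which is how the genes were chosen. The DNP libraries of Bloc1s6 lie between 25.3 and 26.1 CPM and its BAC libraries between 9.52 and 12.2 CPM.

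Since the genes were chosen for separate groups, their direction in any subset of these libraries is fixed by the choice. In edgeR, the adjusted p of all 24 was above 0.05. The rule passed over 203 predicted or clone-named genes that met the same level and separation.

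Meningeal fibroblast genes were mostly higher in BAC. Of 41 listed genes, all of which were tested, 33 were higher in BAC (48.1% of all genes were), 17 passed an unadjusted p of 0.05 and were higher (1.37% of all genes), none passed it and was lower, and 18 had BAC libraries wholly above the DNP libraries (3.38%). The median log2 fold change was 0.68, where that of all genes was -0.01. All lists, also the endothelial and glucocorticoid lists below, were chosen with earlier results of these data known. Their counts are therefore not independent of the data. The meningeal list holds Mpzl2 and Slc47a1, which were known to differ from those results. The score was -0.51, -0.14 and -0.67 in DNP, 0.28, 0.25 and 0.15 in BAC and -0.07, 0.37 and 0.36 in CON. The BAC scores lay above all DNP scores and within the range of CON. Within the libraries with and without brainstem genes, the medians were 0.76 and 0.49.

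Transporters of the meninges made up part of this group. Slc6a13, a transporter of GABA and taurine, had 4.64, 5.26 and 4.66 CPM in DNP and 8.06, 10.5 and 8.38 CPM in BAC, a log2 fold change of 0.89 (SE 0.25). Slc13a4, a sulfate carrier, had 4.92, 9.15 and 9.79 CPM in DNP and 18.7, 15.5 and 11.1 CPM in BAC. Slc22a6, a transporter of organic anions, was at 3.06 ± 1.06 CPM in DNP and 6.26 ± 1.84 in BAC (mean ± SD of 3 mice each). The groups did not overlap for any of these, nor for the imino acid transporter Slc6a20a, with 14.3 and 22.6 CPM on average. Slc22a8, a further organic anion transporter, did not share the direction, with 18.2 ± 5.13 CPM in DNP and 14.9 ± 3.15 in BAC and overlapping groups.

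Secreted proteins on the same list lay on both sides. The small proteoglycan Fmod had 6.95, 11.7 and 6.17 CPM in DNP and 14.7, 22.0 and 14.5 CPM in BAC. Its relatives Lum and Dcn had log2 fold changes of 1.23 (SE 0.39) and 1.09 (SE 0.38). Lum did not overlap between the groups, whereas Dcn in BAC replicate 2, at 9.11 CPM, lay within the DNP range of 7.44 to 10.9 CPM. Fbln1, a matrix glycoprotein, was at 8.95 ± 1.58 CPM in DNP and 14.4 ± 2.69 in BAC, and Igf2, an insulin-like growth factor made by the leptomeninges, at 36.5 ± 8.86 and 54.6 ± 6.79 CPM (mean ± SD of 3 mice each). Aldh1a2, which makes retinoic acid, was at 4.50 ± 2.76 and 11.1 ± 1.4 CPM, and the transcription factor gene Foxd1 at 1.54 ± 0.268 and 2.77 ± 0.544 CPM. Col1a2 had a log2 fold change of 1.06 with overlapping groups. Ptgds, the prostaglandin D synthase of meninges and oligodendrocytes, had 627, 354 and 265 CPM in DNP and 609, 753 and 726 CPM in BAC, so DNP replicate 1 overlapped with BAC. Of the 8 members with a log2 fold change below 0, 5 encode secreted proteins, namely Igfbp2 (-0.13), Vtn (-0.28), Islr (-0.22), Nov (-0.76) and Col6a1 (-0.82), and none of the 8 passed an unadjusted p of 0.05.

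Not all genes of connective tissue took this direction. In a separate list of 26 collagens and other matrix genes (Col4a1, Fn1, laminins, nidogens and others), 13 were higher and 13 lower in BAC, none passed an unadjusted p of 0.05 and the median log2 fold change was 0.00. In the meningeal list, Tbx18 was at 2.13 ± 0.786 CPM in DNP and 1.31 ± 0.701 in BAC (mean ± SD of 3 mice each), the reverse order with overlapping groups. Whether the amount of meninges left on the brains differed was not tested.

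**Figure D4:**
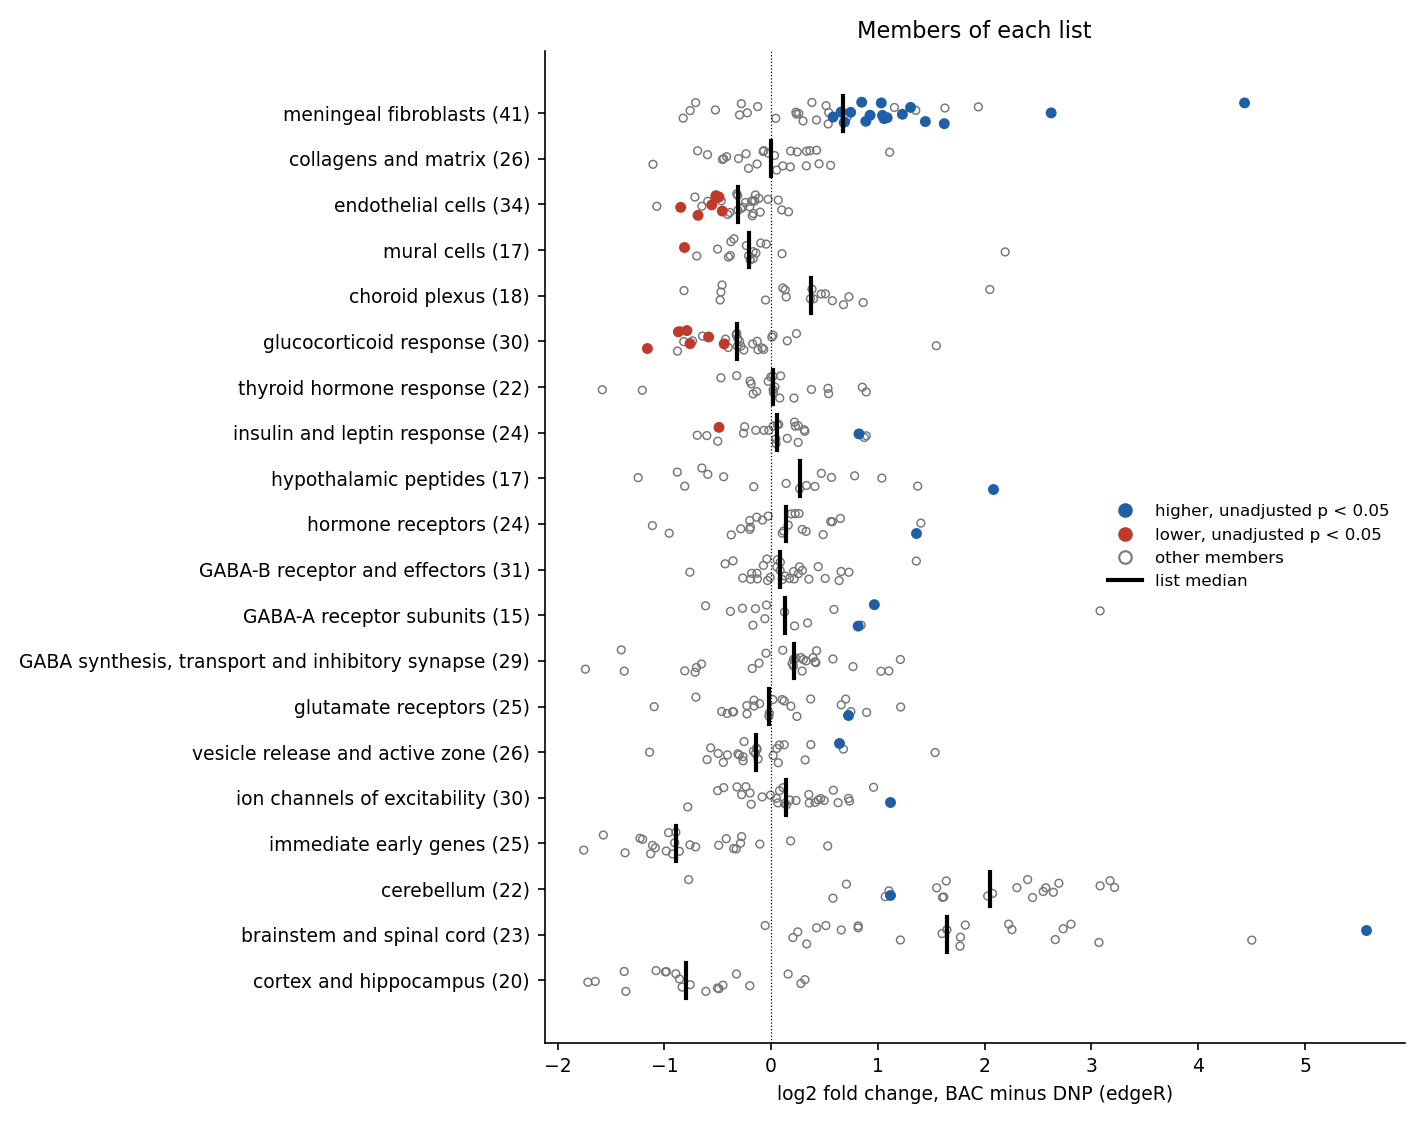
Log2 fold change between BAC and DNP of each tested member of 20 gene lists, with the number of tested members in brackets and the list median as a bar. Filled points passed an unadjusted p of 0.05 in edgeR. The meningeal list has 17 filled points, all above 0, and the endothelial and glucocorticoid lists have 7 and 6, all below 0.

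Endothelial genes were mostly lower in BAC, by small amounts. Of 34 genes, all tested, 31 were lower (51.9% of all genes were), 7 passed an unadjusted p of 0.05 and were lower (1% of all genes), and 6 had BAC libraries wholly below the DNP libraries (3.41%). The median log2 fold change was -0.31, and it was -0.20 without DNP replicate 2. The score was -0.16, 0.29 and 0.27 in DNP and -0.35, -0.11 and -0.11 in BAC. DNP replicate 1 thus lay within the BAC range, and the medians within the libraries with and without brainstem genes were -0.09 and -0.38. The number of members at an unadjusted p under 0.05 was 0 without DNP replicate 2 and without BAC replicate 1, 1 without DNP replicate 3, 4 without CON replicate 3 and 16 without DNP replicate 1.

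Vwf, the von Willebrand factor, had 47.4, 60.2 and 50.2 CPM in DNP and 34.9, 39.4 and 40.6 CPM in BAC, a log2 fold change of -0.46 (SE 0.16). Pecam1, an adhesion molecule of endothelial junctions, had 15.1, 18.8 and 22.5 CPM in DNP and 12.8, 13 and 13.7 CPM in BAC. The groups were separate for both genes, and for Ly6c1 (30.4 ± 2.29 and 21.2 ± 5.13 CPM, mean ± SD of 3 mice each), whose near copy Ly6c2 can share its reads. Flt1, a receptor of VEGF, had 56.6, 86.7 and 79.4 CPM in DNP and 41.9, 51.5 and 58.1 CPM in BAC. Slc2a1, which encodes the glucose transporter GLUT1 of the blood-brain barrier, was at 160 ± 9.49 CPM in DNP and 114 ± 34.4 in BAC, where BAC replicate 3, at 151 CPM, reached the DNP range. The transcription factor gene Sox17 and the thyroid hormone transporter gene Slco1c1 had log2 fold changes of -0.85 and -0.68 with overlapping groups. Cldn5, the tight junction protein most typical of brain vessels, had 29.3, 38.4 and 46.4 CPM in DNP and 17.7, 35.4 and 22.5 CPM in BAC and did not pass an unadjusted p of 0.05.

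Mural cells, the pericytes and smooth muscle cells around the vessels, showed the same direction with less separation. Of 17 tested genes (18 listed), 15 were lower in BAC (51.9% of all genes), with a median log2 fold change of -0.21, and 1 passed an unadjusted p of 0.05 (1%). The medians within the libraries with and without brainstem genes were -0.04 and -0.07. The gene that passed was Kcnj8, a potassium channel subunit of pericytes, with 5.94, 5.05 and 8.34 CPM in DNP and 3.85, 3.80 and 3.34 CPM in BAC. The pericyte gene Rgs5 had 74.3 ± 16.1 and 57.2 ± 7.03 CPM (mean ± SD of 3 mice each), with overlapping groups. In the list of choroid plexus genes, 13 of 18 were higher in BAC without any at an unadjusted p under 0.05, and its score ranged from -1.54 to 0.93 in DNP and from -1.68 to 1.67 in BAC. The choroid plexus median was 0.18 within the libraries with brainstem genes (11 members higher) and -1.22 within those without (3 members higher).

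Glucocorticoid-response genes were mostly lower in BAC. Of 30 listed genes, all tested, 25 were lower (51.9% of all genes), 6 passed an unadjusted p of 0.05 and were lower (1%), none was higher at this threshold, and 6 did not overlap (3.41%). The median log2 fold change was -0.32. The score was 0.42, 0.30 and 0.15 in DNP, -0.26, 0.05 and -0.02 in BAC and -0.24, -0.39 and -0.01 in CON, so that all DNP scores were above all others. Within the libraries with and without brainstem genes, the medians were -0.61 and -0.11. Without BAC replicate 1, 1 member remained at an unadjusted p under 0.05 and the median was -0.18.

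Sgk1, a kinase induced by corticosteroids, had 262, 147 and 155 CPM in DNP and 70.0, 91.8 and 147 CPM in BAC, a log2 fold change of -0.87 (SE 0.34). The highest BAC library and the lowest DNP library were almost equal. Map3k6 had 7.03, 8.26 and 9.06 CPM in DNP and 3.63, 5.39 and 5.35 CPM in BAC. Nfkbia, the inhibitor of NF-kB, had 24.6, 28.7 and 25.8 CPM in DNP and 18, 17.7 and 22.6 CPM in BAC. Neither overlapped between the groups, and the same held for Xdh, the xanthine dehydrogenase (13.2 ± 1.43 and 8.82 ± 1.92 CPM, mean ± SD of 3 mice each), and Arl4d (31.8 ± 2.1 and 14.2 ± 6.35 CPM). Cebpd, a transcription factor of the C/EBP family, was at 8.78 ± 2.24 and 5.08 ± 1.42 CPM with overlap. Nfkbia, Sgk1 and Cebpd are also induced by signals other than glucocorticoids.

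The genes most often read as glucocorticoid targets in brain did not all follow. Fkbp5, which encodes a co-chaperone of the receptor, had 35.3, 37.6 and 32.4 CPM in DNP and 13.4, 41.2 and 23.7 CPM in BAC, and the DNP libraries lay inside the BAC range. Tsc22d3 and Klf9 had log2 fold changes of 0.01 (SE 0.38) and 0.02 (SE 0.12). Zbtb16 did not overlap, with 29.9 ± 6.78 CPM in DNP and 16.3 ± 3.13 in BAC (mean ± SD of 3 mice each), and did not pass an unadjusted p of 0.05. Mt1 and Mt2, the metallothioneins, had -0.12 and -0.13.

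**Figure D5:**
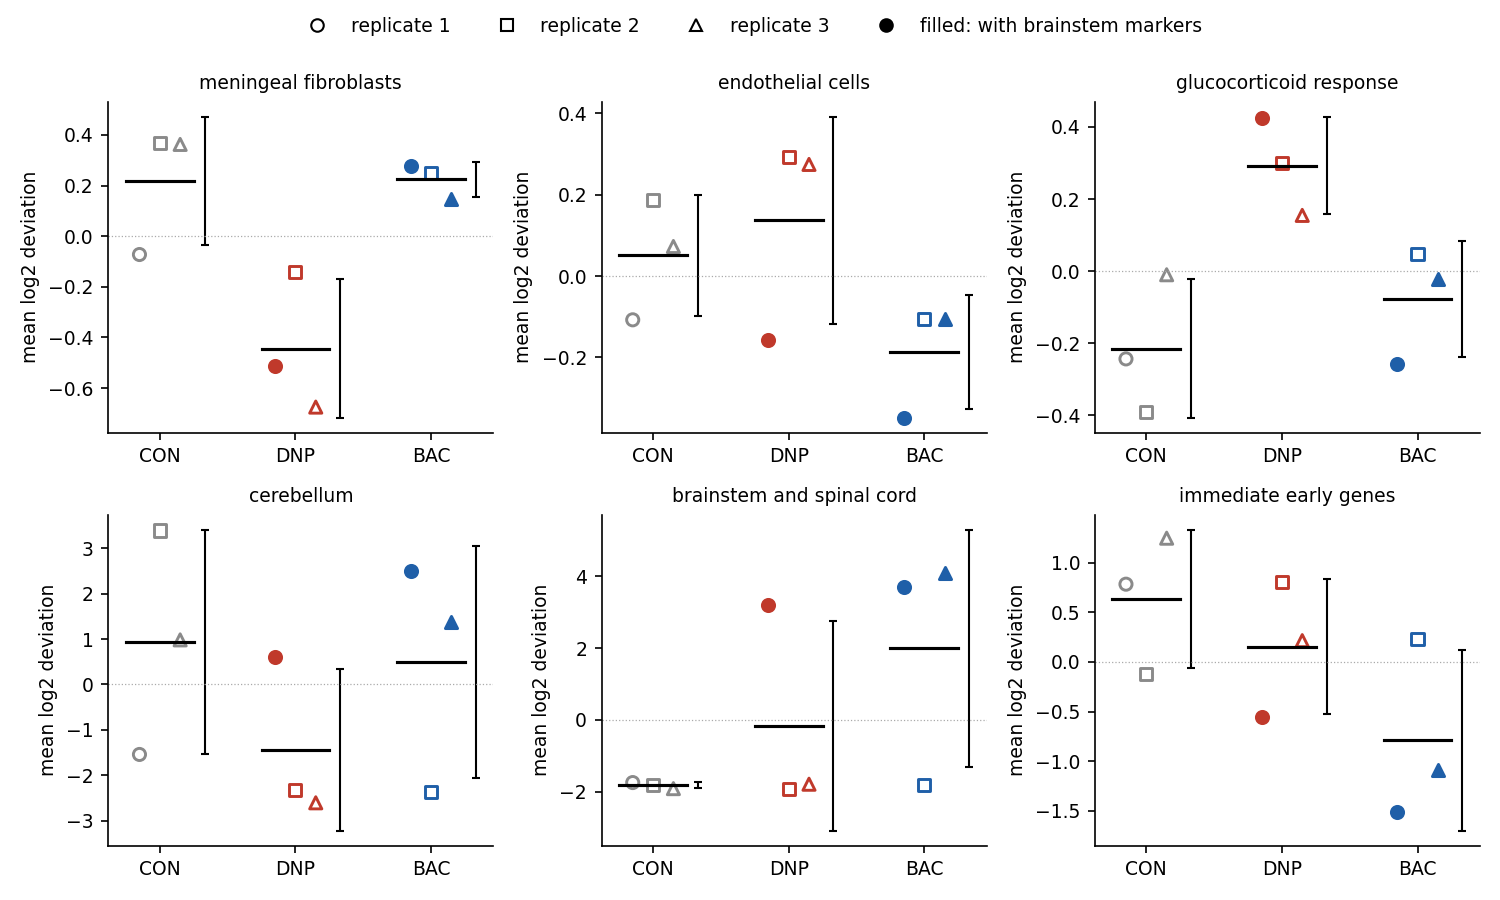
Score of 6 gene lists in each library (mean log2 deviation of the tested members from the mean of the 9 libraries), with the mean of each group as a line and the SD as a bar beside it (n = 3 mice). Filled symbols are the libraries with brainstem genes. The meningeal scores of DNP (at most -0.14) lie below those of BAC (at least 0.15), the glucocorticoid scores of DNP (at least 0.15) lie above those of BAC (at most 0.05), and cerebellar and brainstem scores spread over several log2 units within DNP and BAC.

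Other hormone-related lists had no common direction. Of 22 thyroid hormone-response genes 12 were higher in BAC, with a median log2 fold change of 0.02, and of 24 genes of insulin and leptin signalling 15 were higher, with a median of 0.05. In the latter, 2 members passed an unadjusted p of 0.05. Slc2a1 was lower as given above (1% of all genes passed in this direction), and Lepr was higher (1.37%). Lepr, the leptin receptor, had 2.90, 3.07 and 3.02 CPM in DNP and 6.76, 4.07 and 5.10 CPM in BAC. The groups were separate, and its log2 fold change was 0.82 (SE 0.30). Among 24 tested hormone receptors (26 listed), 14 were higher. Of these 14, 1 passed an unadjusted p of 0.05 (1.37% of all genes), namely Ppara, the lipid-sensing nuclear receptor. Ppara had 1.38, 1.64 and 0.854 CPM in DNP and 4.14, 3.45 and 2.33 CPM in BAC. These levels rest on 19, 24 and 13 reads in DNP and 57, 50 and 37 in BAC. Hypothalamic peptide genes (17 tested of 22) were higher in 10 cases. Avp, the gene of vasopressin, had 2.53, 1.02 and 1.58 CPM in DNP and 9.01, 11.5 and 1.26 CPM in BAC, where BAC replicate 3 lay within the DNP range. Of 13 pituitary genes, 2 had enough reads to be tested.

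The GABA-B receptor itself did not differ detectably between BAC and DNP. Gabbr1 had 643, 713 and 709 CPM in DNP and 576, 737 and 652 CPM in BAC, a log2 fold change of -0.07 (SE 0.15). Gabbr2 had 252, 218 and 293 CPM in DNP and 249, 267 and 242 CPM in BAC, a log2 fold change of -0.01 (SE 0.16), whose sign depended on the setting. The list of this receptor and its effectors (KCTD partners, GIRK channels, G proteins, adenylyl cyclases) had 19 of 31 members higher, none at an unadjusted p under 0.05 and none without overlap, with a median of 0.09.

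GABA-A receptor subunits, the ligand-gated chloride channels, were higher in 8 of 15 cases, with a median log2 fold change of 0.13. Gabrb2, the beta2 subunit of the most common synaptic receptor, had 79.8, 51.6 and 44.4 CPM in DNP and 125, 84.6 and 99.6 CPM in BAC, separate by a small margin. Gabrg1, a gamma subunit of glia and of some nuclei, had 31.9, 30.1 and 9.33 CPM in DNP and 40.5, 46.5 and 52.3 CPM in BAC, a log2 fold change of 0.97 (SE 0.40). Both passed an unadjusted p of 0.05, 2 of 15 members against 1.37% of all genes in this direction. Of 29 genes of GABA synthesis, transport and inhibitory synapses, 19 were higher and none passed an unadjusted p of 0.05.

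Excitatory and presynaptic genes were spread about 0. Glutamate receptors had 12 of 25 members higher with a median of -0.02. Of these, 1 passed an unadjusted p of 0.05 (1.37% of all genes), namely Grin3a (log2 fold change 0.72, SE 0.32). Of 26 genes of vesicle release and the active zone 16 were lower, but Pclo, the active zone scaffold piccolo, was higher, with 181, 147 and 144 CPM in DNP and 328, 196 and 213 CPM in BAC. Ion channels of excitability had 20 of 30 members higher with a median of 0.14. Itpr1, the IP3 receptor that is most abundant in Purkinje cells, had 428, 527 and 390 CPM in DNP and 1532, 701 and 671 CPM in BAC. The cerebellar scores were 0.60, -2.32 and -2.60 in DNP and 2.49, -2.37 and 1.38 in BAC. The highest of the 6 libraries, BAC replicate 1, had the highest score. BAC replicates 2 and 3 were at similar Itpr1 levels with scores of -2.37 and 1.38. The CON libraries had 905, 3149 and 1479 CPM of Itpr1 at cerebellar scores of -1.54, 3.38 and 0.98. The part of cerebellar tissue in this difference was not tested.

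Immediate early genes, which neurons transcribe within minutes of activity, were lower in BAC in 23 of 25 cases, with a median log2 fold change of -0.89, and none passed an unadjusted p of 0.05. Arc had 42.7, 209 and 148 CPM in DNP and 20.5, 84.7 and 29.3 CPM in BAC, and Egr1 85.3, 342 and 291 CPM in DNP and 36.9, 184 and 57.6 CPM in BAC. In both genes the library with the lowest level in its group, DNP replicate 1 or BAC replicate 1, was a library with brainstem genes. The median of this list was -0.64 within the libraries with brainstem genes and -0.25 within those without. Cortex and hippocampus genes had the same direction, with 17 of 20 lower and a median of -0.80. Their medians within the libraries with and without brainstem genes were -1.40 and -0.20. The part of the sampled regions in the immediate early gene result was not tested.

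Genes that mark the cerebellum and the brainstem had the largest list medians of the 38 lists. Cerebellar genes were higher in BAC in 21 of 22 cases with a median log2 fold change of 2.05, and those of brainstem and spinal cord in 22 of 23 cases (25 listed) with a median of 1.65. In each list 1 member passed an unadjusted p of 0.05 and was higher (1.37% of all genes). BAC libraries lay wholly above DNP libraries for 1 cerebellar and 0 brainstem members (3.38%). Within the libraries with and without brainstem genes, the medians were 1.52 and 0.38 for cerebellum and 0.64 and 0.04 for brainstem. Neurod1, a factor of granule cells, had 27.4, 6.21 and 11.2 CPM in DNP and 180, 10.0 and 54.7 CPM in BAC. Hoxb8, which is expressed in caudal levels, had 2.03, 0 and 0 CPM in DNP and 61.6, 0 and 33.7 CPM in BAC. Among the 6 libraries, both genes were highest in BAC replicates 1 and 3, while BAC replicate 2 lay within the DNP range. The cerebellar scores of DNP (0.60, -2.32 and -2.60) and BAC (2.49, -2.37 and 1.38) overlapped.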

How the data were processed

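Whole-brain RNA of 9 mice was sequenced as paired-end libraries without strand information. The authors checked reads with FastQC 0.11.9, trimmed with fastp, used HISAT2 2.1.0 for alignment to GRCm38 and quantified genes with StringTie 1.3.3b, and they deposited raw read counts per gene, not normalized, and FPKM values. In the 10547 genes checked, the deposited FPKM equals the count divided by a gene length and the library total (largest ratio of implied lengths 1.000009), without TMM factors. Counts of 18501 genes, of 53465, passed filterByExpr of edgeR 4.0.16 (minimum count 10, R 4.3.3) and were tested by edgeR's quasi-likelihood test over 9 libraries, with TMM normalization, group as the factor and Benjamini-Hochberg adjustment. DESeq2 1.42.0 and limma 3.58.1 (log2 of FPKM plus 1 or 0.1) were alternatives, with other normalizations, filters, a replicate block, region scores as covariates and each library left out. Counts of Mpzl2, Styx, Zfp236, Txnip, Rbm8a and Acot1 were summed with overlapping or near-identical genes (BLAST 2.17.0, at least 95% identity over 200 bases). Other overlaps were left unsummed. These sums, a term for brainstem genes and leaving out CON libraries were tried only after seeing the data.

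The members and the 38 gene lists were chosen with earlier results of these data known. Named genes were the 12 higher and 12 lower genes with the smallest p, separate groups and at least 1 CPM on average, those called by DESeq2, up to 4 per list, and Gabbr1, Gabbr2, Mpzl2 and Slc47a1, with 1 further gene that is not reported here. Coordinates are those of GENCODE M21 on GRCm38. Totals of 13107382 to 15454298 reads per library and the spread between mice (biological coefficient of variation 36.5%) limit the precision, and libraries of the same group differed beyond counting noise (chi-square per degree of freedom 15.1 to 116). Behaviour, qPCR, docking and the human data were not analysed here.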

Additional observations from a re-analysis of the deposited data

How the results depend on the processing

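Calls at an adjusted p of 0.05 numbered 7 with DESeq2 and 2 with cerebellar and brainstem scores as covariates (Dao and Slc6a5, log2 fold changes of -2.45 and -2.81 against 1.28 and 0.43 without covariates, named after their values were seen, where Slc6a5 is itself a member of the brainstem list behind a covariate), and 0 in each other alternative. With the counts of Mpzl2, Styx, Zfp236, Txnip, Rbm8a and Acot1 each summed with chosen partner genes, DESeq2 called 6 genes. These were Bloc1s6, Aebp1, Ap2s1, Ube2a, Zfp236 and Slc47a1. No other overlapping genes were summed. Genes at an unadjusted p under 0.05 numbered 833 without a filter (454 higher, 379 lower) and 815 with the covariates (388 higher, 427 lower), and 205 to 1448 when a library was left out (107 to 893 higher, 96 to 966 lower), lowest without DNP replicate 3 and highest without BAC replicate 2. Genes without overlap numbered 2054 without a filter and 1248 to 5639 with a library left out, where fewer libraries leave less to overlap. The meningeal list had 13 to 20 members at an unadjusted p under 0.05 with a library left out and a median of 0.59 to 0.82, and its median was 0.40 and that of the endothelial list -0.18 in limma on log2(FPKM + 1), where the added 1 shrinks low genes. The endothelial list had 0 to 16 such members with a library left out, and the glucocorticoid list 1 to 7, and 11 with the covariates. The endothelial median was -0.43 to -0.20 and the glucocorticoid median -0.47 to -0.18 with a library left out. The causes of these shifts were not tested except where stated.

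The replicate numbers were not used as pairs, since the paper assigned separate diabetic mice to the groups at random. The correlations of deviations between same-numbered DNP and BAC libraries were 0.50, 0.56 and -0.31. Those between libraries of unlike number ranged from -0.70 to 0.57. These values cannot show or exclude pairing, because the libraries also differed in brainstem genes. With the replicate block, 382 genes passed an unadjusted p of 0.05, 0 an adjusted p, and 12 endothelial members were lower at an unadjusted p under 0.05.

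Signs turned in 5 named genes, of which Tsc22d3, Klf9, Gabbr1 and Gabbr2 had log2 fold changes near 0 and Gabra6 did not. Tsc22d3 was -0.010 with the replicate block, -0.46 with the covariates, -0.35 with the term for brainstem genes and -0.26 to 0.39 with a library left out. With a library left out, Klf9 was -0.026 to 0.095, Gabbr1 -0.165 to 0.015 and Gabbr2 -0.103 to 0.104. Gabbr1 was 0.024 with the covariates. Gabbr2 was 0.0044 with DESeq2 and with RLE factors, 0.0027 with the replicate block, 0.011 with library totals alone, 0.013 with the term for brainstem genes, 0.016 without a filter, 0.021 and 0.022 in limma with 1 and 0.1 added, and 0.047 with the covariates. Gabra6 was -0.82 with the covariates, against 3.08.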

Other observations

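Glial and immune genes had small and mixed differences between BAC and DNP. Of 21 tested astrocyte genes, 17 were higher in BAC with a median log2 fold change of 0.39, which was 0.09 and 0.08 within the libraries with and without brainstem genes. Sox9, a transcription factor of astrocytes, had 29.4, 28.1 and 22.8 CPM in DNP and 40.2, 43.2 and 36.5 CPM in BAC, with no overlap, and the CON libraries ranged from 34.3 to 43.3 CPM. Lcn2, an acute-phase protein of reactive astrocytes, was lower on average, with 7.75, 4.37 and 2.04 CPM in DNP, 2.25, 2.62 and 0.945 CPM in BAC and 0.133 to 0.143 CPM in CON, and the groups overlapped. Microglial genes were lower in 19 of 25 cases, with a median of -0.17. This direction was not shared by both sets of libraries. The median was -0.31 within the libraries with brainstem genes (3 of 25 higher) and 0.11 within those without (19 of 25 higher). The fractalkine receptor gene Cx3cr1 was higher in BAC replicates 1 and 2 (27.9 and 53.6 CPM). It was at 10.6 CPM in BAC replicate 3, within the DNP range of 9.56 to 15.9 CPM. Genes of inflammation and NF-kB were lower in 18 of 27 cases with a median of -0.12. Of the 27, 2 passed an unadjusted p of 0.05 and were lower (1% of all genes), and none passed it and was higher. The BAC libraries lay wholly below the DNP libraries for 3 members (3.41% of all genes) and wholly above them for none. Cxcl12, a chemokine of vessels and meninges, had 25.9, 55.6 and 57.2 CPM in DNP and 23.5, 24.6 and 29.0 CPM in BAC, and its difference was 0.01 within the libraries with brainstem genes and -1.20 within those without.

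Myelin genes were lower in 15 of 23 cases with a median log2 fold change of -0.04, interferon-response genes in 13 of 25 with -0.06, and genes of fatty acid oxidation and ketone use were higher in 17 of 23 with 0.07. Antioxidant genes of the NRF2 pathway were higher in 16 of 21 cases (median 0.12), heat shock genes lower in 13 of 20 (median -0.11) and clock genes lower in 13 of 18 (median -0.17). The 13 mitochondrially encoded genes had a median of -0.09, with 11 lower. None of these 7 lists had a member at an unadjusted p under 0.05 in edgeR. Some of their medians differed in sign between the libraries with and without brainstem genes. These were the interferon (0.14 and -0.40), NRF2 (-0.04 and 0.02), clock (0.16 and -0.01) and mitochondrially encoded lists (-0.19 and 0.13). Among the remaining lists, opioid, tachykinin and monoamine genes were higher in 21 of 27 cases (median 0.41), ependymal genes lower in 11 of 14 (median -0.38), blood cell genes lower in 8 of 13 (median -0.10) and striatal genes lower in 11 of 16 (median -0.08). Genes of thalamus, hypothalamus and midbrain were higher in 8 of 15 cases (median 0.36), those of the olfactory bulb lower in 8 of 11 (median -0.59) and those of muscle, skin and ganglia lower in 7 of 11 (median -0.21). Medians within the libraries with and without brainstem genes were -0.03 and 0.48 (opioid list), 0.06 and -0.98 (ependymal) and -0.18 and -0.21 (blood cells). They were 0.23 and 0.78 (striatum), 0.07 and -0.20 (thalamus, hypothalamus and midbrain), 0.27 and 0.30 (olfactory bulb) and -0.05 and -0.04 (muscle, skin and ganglia).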
